A study of Mus musculus with 6 samples.

Results

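The annexin family was described here through 8 mouse genes, Anxa1, Anxa2, Anxa3, Anxa4, Anxa5, Anxa6, Anxa7 and Anxa11, of the 16593 genes named on an Illumina bead array. They were taken as every probe whose platform symbol was one of these names, which gave 10 of the 25697 probes, with 2 probes each for Anxa3 and Anxa11. Total RNA came from 6 brain tumours that grew in SCID mice, a strain that lacks mature T and B cells but keeps its myeloid cells and vessels. The 3 tumours of the first group came from transplanted Olig2cre/cre;p53fl/fl;hEGFRvIII cells and the 3 of the second from Olig2cre/+;p53fl/fl;hEGFRvIII cells. All 6 thus carried cre at the Olig2 locus, floxed p53 alleles and hEGFRvIII, a human EGF receptor variant of glioma, and the groups differed in whether an Olig2 allele without cre remained. Tumours were taken when the animals showed neurological symptoms, and the labels give an age of 45, 50 and 47 days to numbers 1, 2 and 3 of each genotype. The labels leave unsaid how hEGFRvIII was driven, and whether 1 or several lines of cells were transplanted per genotype. The p-values therefore cover the spread among these 6 tumours, which may be smaller than that among independent lines. Genotype differences are Olig2cre/cre minus Olig2cre/+, and they address how loss of the second Olig2 allele goes with gene expression in tumours at symptom onset.

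Annexins are soluble proteins that bind phospholipids of the inner membrane face, mainly phosphatidylserine, when calcium rises. Each has a conserved core of annexin repeats and its own N-terminal stretch, to which partners such as S100 proteins bind. They are known for membrane repair, vesicle traffic, plasmin formation at the cell surface and the ending of inflammation, and ANXA1 and ANXA2 mark mesenchymal glioma in humans.

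The arrays were normalized together and put on a log2 scale, and a probe counted as detected where its detection p was under 0.05. Between 53.4% and 57.6% of all probes were detected per array. Every one of the 8 astrocyte marker genes, glial markers that a brain tumour should hold, was detected on all 6 arrays. The 1 Olig2 probe read 6.41, 5.86 and 6.44 in the Olig2cre/cre tumours and 7.76, 7.85 and 7.13 in the Olig2cre/+ tumours, a difference of -1.34 ± 0.30 (SE, n = 3 per group, limma adjusted p = 0.0555). It was detected on all 6 arrays, and whether it lies in the part that the cre allele replaces is not known here. Olig2cre/cre replicate 3 correlated at r = 0.914 to 0.941 over all tested probes with the Olig2cre/+ arrays and at 0.886 and 0.928 with its own group, so the annexin and list counts are also given without it. Replicate 1 correlated at 0.912 and 0.886 with its own group. Leaving out the Olig2cre/cre tumour nearest the other group can by itself widen the separation of the groups. Counts without replicate 3 are therefore description and no separate check.

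Transcripts of Anxa1, Anxa2, Anxa4 and Anxa6 were higher in the Olig2cre/cre tumours, and those of Anxa3, Anxa5 and Anxa11 did not pass the test. Of the 10 probes, 8 were detected on at least 3 arrays and were tested, and 4 of these rose (limma adjusted p under 0.05 over all tested probes). None fell. Among all 14606 tested probes 4.42% passed, 2.65% rose and 1.77% fell. The means of all 8 tested annexin probes were higher in Olig2cre/cre, where 51.5% of all tested probes had a positive difference, and the differences ran from 0.96 to 2.93 with a median of 1.52, against 0.02 for all tested probes. For 7 of the 8, the lowest Olig2cre/cre tumour was above the highest Olig2cre/+ tumour, as it was for 15.8% of all tested probes, and 31.2% of all tested probes had separate groups in either direction. Without Olig2cre/cre replicate 3, the Olig2cre/cre tumour nearest the other group, this was so for 8 of the 8 and for 23.6% of all tested probes. The choice of the tumour left out favours such a rise. At an unadjusted p under 0.05 stood 7 of the 8, and 12.2% of all tested probes did so as higher in Olig2cre/cre. The Anxa1 probe passed the filter through the Olig2cre/cre arrays alone, so a difference was built into its being tested. Anxa3 enters these counts through 2 probes, and the members were chosen with earlier results of these data known. The counts are therefore description, and the shares over all tested probes are no test of them. The 2 probes that were not tested, that of Anxa7 and 1 of Anxa11, were not detected on any array.

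The 4 calls depended on which tumours were compared. Without Olig2cre/cre replicate 3, 5 annexin probes rose, those of Anxa1, Anxa2, Anxa4, Anxa5 and Anxa6, where 5.85% of all tested probes rose. Without Olig2cre/cre replicate 1, 4 rose, those of Anxa1 and Anxa6 and both of Anxa3, where 1.44% of all did. Without Olig2cre/cre replicate 2 or any single Olig2cre/+ tumour no annexin probe passed in limma, although 7, 7, 7 and 8 of the 8 were at an unadjusted p under 0.05. In the same fits 3041, 3183, 2458 and 2716 of all 14606 tested probes were so, in either direction. Of all tested probes 0.575% rose without Olig2cre/cre replicate 2, and 0.0411%, 0.0342% and 0.233% without Olig2cre/+ replicates 1, 2 and 3. All 8 annexin differences stayed positive in these 6 fits. With all 6 tumours, 2 annexin probes rose with no background correction (1.73% of all), 4 with the replicate number as a block (4.11%) and 7 with array weights (6.5%), a setting that gave Olig2cre/+ replicate 2 a weight of 7.3 and every other array 0.469 to 1.19.

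**Figure D1:**
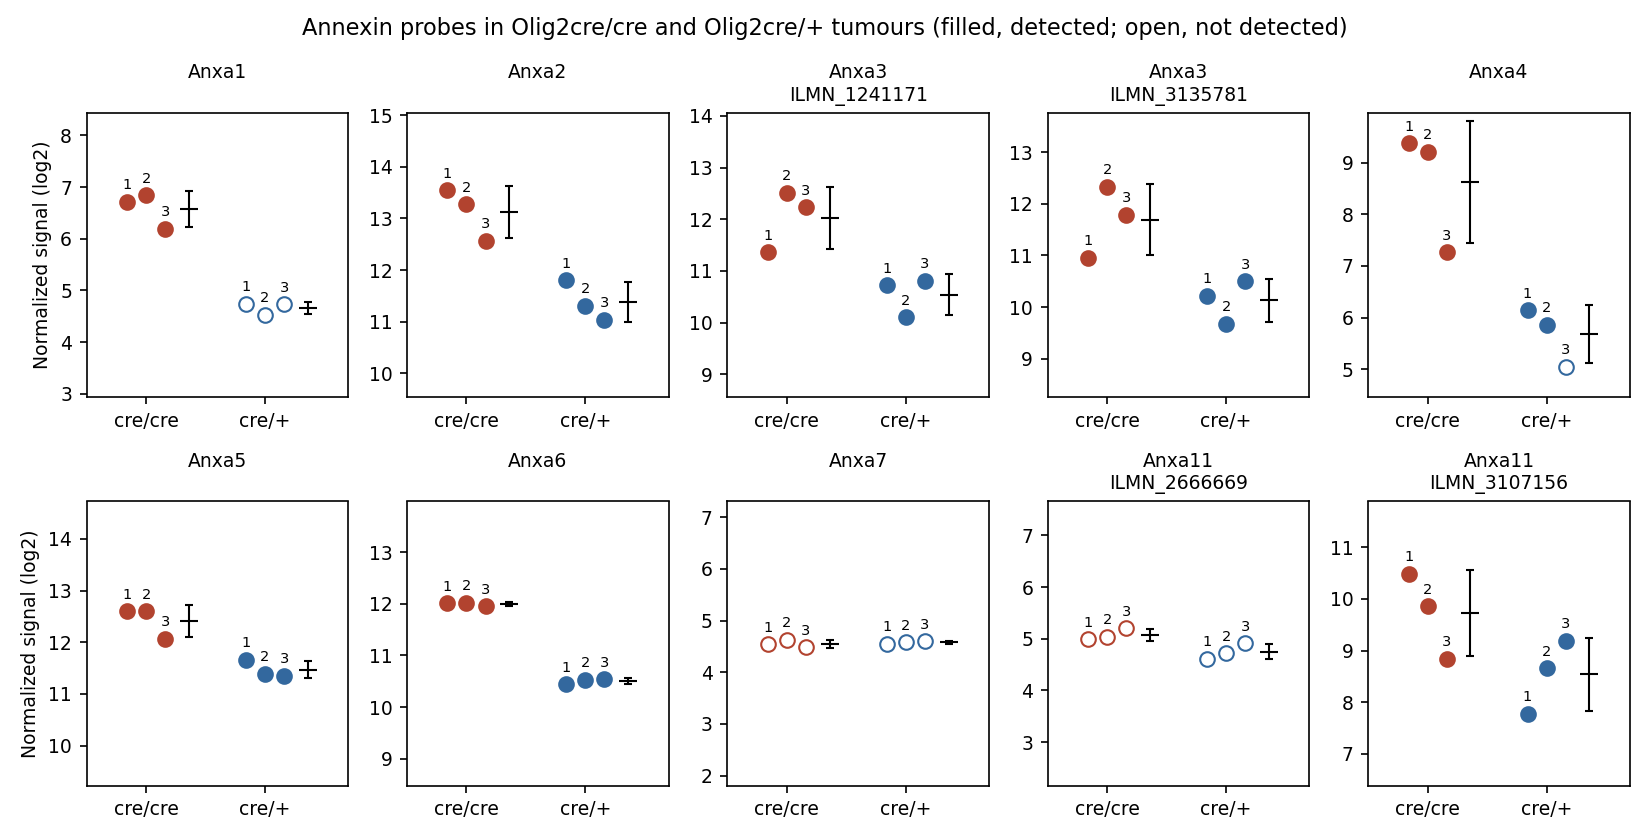
Normalized log2 signal of the 10 annexin probes in each tumour, with Olig2cre/cre in red on the left and Olig2cre/+ in blue on the right of each panel, and the number of each tumour above its point. Black bars are the mean and SD (n = 3), open points are values not detected, and every panel spans the same log2 range. The 2 groups are separated in 7 of the 8 tested probes and overlap in Anxa11 ILMN_3107156.

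Anxa1 encodes the annexin that glucocorticoids induce and whose N-terminal peptides act on formyl peptide receptors of leukocytes. Its probe (ILMN_1259252) gave raw signals of 226, 268 and 214 in the Olig2cre/cre tumours and 148, 152 and 152 in the Olig2cre/+ tumours. All 3 Olig2cre/cre values were detected, the highest detection p being 0.00376, and none of the Olig2cre/+ values was, with detection p of 0.391, 0.818 and 0.370. After normalization the Olig2cre/cre values were 6.72, 6.84 and 6.19 and the Olig2cre/+ values 4.74, 4.53 and 4.73. Anxa1 was thus a dim signal, seen in each Olig2cre/cre tumour and at background level in each Olig2cre/+ tumour. The fitted difference was 1.92 ± 0.26 (SE, n = 3 per group, limma adjusted p = 0.0173). Since the Olig2cre/+ level is only a bound, Anxa1 was at least 2.38-fold higher in Olig2cre/cre on this normalized scale. This sets the mean of the bright group against the lowest detected signal of each Olig2cre/+ array. The bound holds only for this background correction and offset. With an offset of 50 the fitted difference was 1.13 (limma adjusted p = 0.0347), below the log2 value of that bound, 1.25. With no background correction the difference was 0.64 (adjusted p = 0.0576) and the call was lost.

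Anxa2 encodes the annexin that pairs with S100a10 into a tetramer, which holds plasminogen and its activator at the cell surface. Its probe (ILMN_2657175) read 13.54, 13.27 and 12.57 in Olig2cre/cre and 11.80, 11.31 and 11.04 in Olig2cre/+. The lowest Olig2cre/cre tumour, replicate 3, still lay 0.77 above the highest Olig2cre/+ tumour, replicate 1. The difference was 1.74 ± 0.34 (SE, adjusted p = 0.0424), or 3.35-fold. Of all tested probes 3.27% had a difference of at least this size. With no detection filter the Anxa2 call was lost (1.74, adjusted p = 0.0726).

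The stretch before the start of Anxa1 and of Anxa2 is shown because both genes rose and their partners and roles are the best known of the 4. The sequences are the 250 bases before the gene start as RefSeq has it on GRCm38.p6, at chr19:20390672-20390921 on the minus strand for Anxa1 and chr9:69453433-69453682 on the plus strand for Anxa2, written 5′ to 3′ on the gene's strand. Capitals mark matches on either strand to the AP-1 motif TGANTCA, the TEAD motif GGAATG, the STAT motif TTCNNNGAA, the GC box GGGCGG, the TATA box TATAAA and the E-box CAGCTG.
Anxa1: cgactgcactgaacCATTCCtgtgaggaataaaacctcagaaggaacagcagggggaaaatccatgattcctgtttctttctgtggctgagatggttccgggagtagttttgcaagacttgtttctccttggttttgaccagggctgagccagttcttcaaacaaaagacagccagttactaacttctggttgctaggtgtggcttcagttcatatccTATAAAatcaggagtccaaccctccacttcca
Anxa2: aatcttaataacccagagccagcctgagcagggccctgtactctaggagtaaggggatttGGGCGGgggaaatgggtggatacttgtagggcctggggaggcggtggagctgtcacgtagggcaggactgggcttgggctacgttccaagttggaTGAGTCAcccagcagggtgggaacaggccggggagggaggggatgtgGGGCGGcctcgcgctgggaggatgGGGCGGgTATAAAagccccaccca
The Anxa1 stretch held 1 TEAD match, at base 15 from its 5′ end, and a TATA box at base 219. The Anxa2 stretch held 1 AP-1 match at base 156, 3 GC boxes, the first at base 61, and a TATA box at base 234. No 2 of these matches overlapped. Of 32851 mouse promoter stretches of the same length, 12.6% held the TEAD motif, 6.75% the AP-1 motif, 32.7% the GC box and 12.4% the TATA box. The table held 8 stretches for 6 of the 8 annexin genes, those named here except Anxa3 and Anxa6. In these 8 the AP-1 and TEAD motifs occurred in 1 each, the TATA box in 2, the GC box in 4 stretches of 3 genes (both overlapping Anxa7 stretches hold 1 shared site), the E-box CAGCTG in 1, in Anxa4, and the STAT motif in 0. GC content was 46.0% for Anxa1 and 62.4% for Anxa2, with a median of 52.4% over all stretches. These matches describe letters only and say nothing of binding.

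Anxa4, Anxa5 and Anxa6 encode core annexins that assemble on phosphatidylserine membranes and take part in closing membrane wounds. Anxa4, which is abundant in epithelia, had the largest difference of the annexin probes. Its probe (ILMN_2935012) read 9.37, 9.21 and 7.26 in Olig2cre/cre and 6.14, 5.86 and 5.05 in Olig2cre/+. Replicates 1 and 2 of Olig2cre/cre were alike, and replicate 3 lay between them and the Olig2cre/+ tumours. The difference was 2.93 ± 0.60 (SE, adjusted p = 0.0458), or 7.62-fold, and 0.609% of all tested probes had one as large. Anxa4 was detected on 2 of the 3 Olig2cre/+ arrays, and with the third value raised to the lowest detected signal the fold was 7.31. The Anxa4 call was lost with no background correction (1.55, adjusted p = 0.0829), with an offset of 50 (2.33, adjusted p = 0.0523) and with no detection filter (2.93, adjusted p = 0.0973).

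Anxa6 encodes the largest annexin, whose core is duplicated. Its probe (ILMN_2878060) read 12.01, 12.02 and 11.95 in Olig2cre/cre and 10.44, 10.53 and 10.54 in Olig2cre/+. The SD was 0.04 in Olig2cre/cre and 0.06 in Olig2cre/+, against a median SD over all tested probes of 0.40 and 0.30, so that Anxa6 had nearly the same value in every tumour of a genotype. The difference of 1.49 ± 0.21 (SE, adjusted p = 0.0182) is 2.80-fold. It stayed between 1.40 and 1.51 over 16 other planned settings and passed in 12 of them.

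Anxa5 encodes the phosphatidylserine-binding annexin used to stain dying cells. Its probe (ILMN_2680142) read 12.60, 12.60 and 12.07 in Olig2cre/cre and 11.66, 11.39 and 11.35 in Olig2cre/+. The groups were separated by 0.41, and the difference of 0.96 ± 0.26 (SE, adjusted p = 0.0790) did not pass. It was the smallest of the tested annexin differences, and 10.4% of all tested probes had one of at least this size.

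Anxa3, an annexin abundant in neutrophils, was read by 2 probes. ILMN_1241171 gave 11.36, 12.51 and 12.23 in Olig2cre/cre and 10.72, 10.10 and 10.81 in Olig2cre/+, and ILMN_3135781 gave 10.95, 12.33 and 11.79 in Olig2cre/cre and 10.22, 9.68 and 10.50 in Olig2cre/+. The probes ordered the tumours alike and differed by a root mean square of 0.11 after each was centred on its own mean. Their differences were 1.49 ± 0.37 and 1.56 ± 0.41 (SE, adjusted p = 0.0680 and 0.0753). Neither passed, and both passed without Olig2cre/cre replicate 1 (1.82 and 1.93, adjusted p = 0.0465 and 0.0489). Olig2cre/cre replicate 1 was the lowest Olig2cre/cre tumour for Anxa3, whereas replicate 3 was the lowest for Anxa1, Anxa2, Anxa4, Anxa5, Anxa6 and Anxa11.

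Anxa7 and Anxa11 encode annexins with long N-terminal stretches that bind the calcium sensor ALG-2. The 1 Anxa7 probe (ILMN_2617956) had raw signals of 143, 149 and 140 in Olig2cre/cre and 138, 156 and 146 in Olig2cre/+, with detection p of at least 0.609, and gives no level for this gene. Anxa11 probe ILMN_2666669 was also not detected, with raw signals of 162, 169 and 176 in Olig2cre/cre and 142, 165 and 159 in Olig2cre/+. The other Anxa11 probe, ILMN_3107156, was detected on all arrays and read 10.49, 9.86 and 8.84 in Olig2cre/cre and 7.78, 8.66 and 9.19 in Olig2cre/+. These groups overlapped, since Olig2cre/+ replicate 3 was above Olig2cre/cre replicate 3. The difference of 1.19 ± 0.52 (SE, adjusted p = 0.206) did not pass, nor did it in any of 16 other planned settings. The undetected and the detected probe name the same transcript, and which of its forms each can read is not given in the sources used here.

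**Figure D2:**
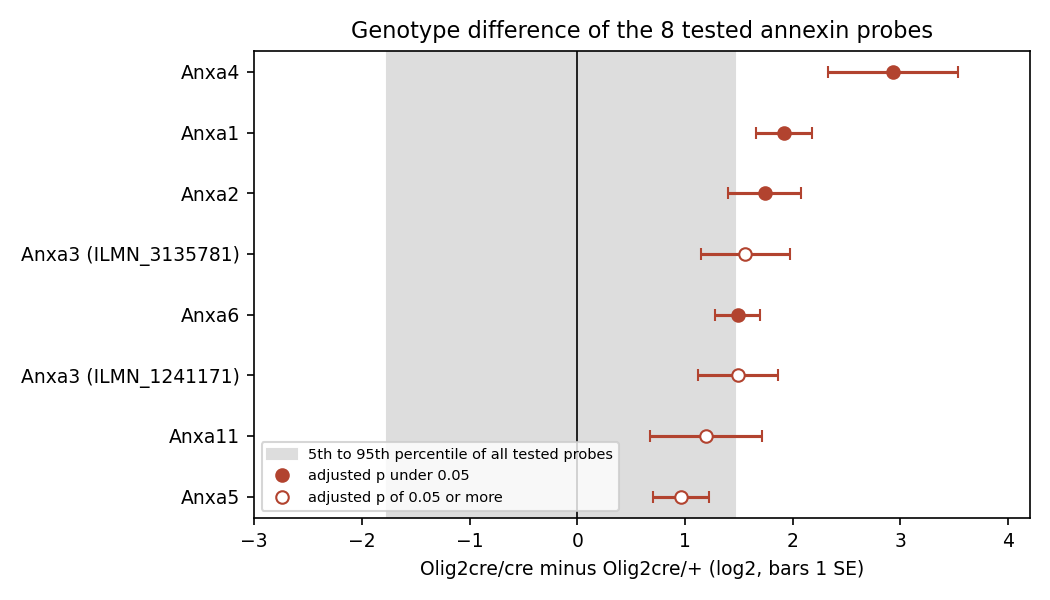
Difference between the Olig2cre/cre and Olig2cre/+ means of the 8 tested annexin probes on the log2 scale, with bars of 1 SE and filled points for those past the threshold. The grey band runs from the 5th to the 95th percentile of all tested probes, -1.77 to 1.46. Anxa5 and Anxa11 lie inside the band, and the other 6 probes lie to the right of it, Anxa6 and Anxa3 ILMN_1241171 just beyond its edge.

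Set beside the mean of the Olig2cre/+ tumours, the 7 measured annexin genes lay above it in each Olig2cre/cre tumour, by amounts that differed between genes and tumours. Anxa11 in Olig2cre/cre replicate 3 was nevertheless below Anxa11 in Olig2cre/+ replicate 3 (0.65). In replicate 1 they lay 0.82 (Anxa3) to 3.69 (Anxa4) above that mean, in replicate 2 from 1.13 (Anxa5) to 3.53 (Anxa4), and in replicate 3 from 0.30 (Anxa11) to 1.68 (Anxa3), with medians of 1.95, 1.89 and 1.44. In the Olig2cre/+ tumours the medians were 0.18, -0.07 and 0.04. After centring, Anxa1 differed from Anxa2 by a root mean square of 0.27 over the 6 arrays and from Anxa6 by 0.29, values that rest in part on the undetected Anxa1 signals of Olig2cre/+, while the Anxa3 probes differed from Anxa4 by 1.21 and 1.20. The median SD of the 8 tested probes was 0.55 in Olig2cre/cre and 0.39 in Olig2cre/+.

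Anxa5 and Anxa11 differed by 0.61, more than Anxa5 varied about its own mean (0.52). By the same measure, the named genes whose pattern over the 6 arrays was most like that of Anxa1 were Gprc5c (0.111), Galnt2 (0.166) and Gng2 (0.193). For Anxa2 they were Ifitm3 (0.0949), Lrp5 (0.0997) and Cd151 (0.125), for Anxa4 Fkbp11 (0.182), Tbx2 (0.291) and Dusp4 (0.326), and for Anxa6 Id1 (0.0993), Tmem253 (0.101) and Stap2 (0.102). These 12 genes were picked for a pattern like that of an annexin that rose, so their genotype differences, of 1.36 to 2.87, follow from the choice. For Anxa1 the likeness also rests on 3 undetected values.

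Among the known partners of annexins, none of 6 S100 genes passed in limma, where 2.83% of all 9998 tested genes rose and 1.95% fell. At an unadjusted p under 0.05 stood 1 of the 6, where 3697 of all 14606 tested probes did, in either direction. The median difference of the S100 genes was -0.29, against 0.00 over all tested genes, and its sign depended on single tumours: it was -0.69 without Olig2cre/cre replicate 2, 0.07 without Olig2cre/cre replicate 3, -0.51 without Olig2cre/+ replicate 2 and 0.18 without Olig2cre/+ replicate 1. Without Olig2cre/cre replicate 3, S100b fell and none rose, where 5.96% of all tested genes rose and 7.87% fell. S100a10, the partner of Anxa2, read 8.83, 10.57 and 9.76 in Olig2cre/cre and 9.83, 9.14 and 9.02 in Olig2cre/+. Its groups overlapped, Olig2cre/cre replicate 1 being the lowest of all 6 tumours (difference 0.39 ± 0.47, SE, adjusted p = 0.659). The ratio of Anxa2 to S100a10 within an array was 4.71, 2.70 and 2.81 in Olig2cre/cre and 1.97, 2.17 and 2.02 in Olig2cre/+ on the log2 scale. It did not overlap between the groups and differed by 1.36 (two-sided exact permutation p = 0.1, the smallest that 3 against 3 allows, 0.2 after Benjamini-Hochberg adjustment over 2 ratios). This test could not have reached 0.05, so it decides nothing. Anxa2 had already passed as higher, so the separation in part restates its values. Olig2cre/cre replicate 1 (4.71) also stood apart from the other Olig2cre/cre tumours. The other ratio, of Anxa1 to S100a11, rests on undetected Anxa1 values in Olig2cre/+ and is not read. S100a11, the partner of Anxa1, read 11.93, 13.26 and 11.69 in Olig2cre/cre and 11.53, 10.77 and 10.18 in Olig2cre/+, a difference of 1.47 ± 0.51 (SE, adjusted p = 0.134). S100b, the second smallest p of the list, differed by -1.09 ± 0.58 (SE, adjusted p = 0.298).

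Fpr2, a receptor for Anxa1 peptides, was the 1 formyl peptide receptor measured here. It read 9.74, 5.88 and 6.90 in Olig2cre/cre and 8.04, 7.87 and 7.13 in Olig2cre/+ (difference -0.17 ± 0.91, SE, adjusted p = 0.932). Olig2cre/cre replicate 1 was the highest and replicate 2 the lowest of all 6. Among phospholipases A2, the enzymes that Anxa1 was first known to inhibit, none of 4 tested genes passed. None was at an unadjusted p under 0.05, where 3697 of all 14606 tested probes were, in either direction. Pla2g7 differed by -0.74 ± 0.84 (SE, adjusted p = 0.635). Pla2g4b was detected on the 3 Olig2cre/+ arrays and on 0 of the Olig2cre/cre arrays, which alone brought it into the test (adjusted p = 0.232), so its Olig2cre/cre level is only a bound.

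In the plasminogen system, which Anxa2 serves at the cell surface, none of 4 tested genes passed in limma. There 3 were at an unadjusted p under 0.05, as were 3697 of all 14606 tested probes in either direction. Plau and Plaur were so as higher and Serpini1, an inhibitor of the tissue activator, as lower (-2.16 ± 0.89, SE, adjusted p = 0.186). Serpini1 read 6.73, 6.87 and 9.41 in Olig2cre/cre and 8.80, 9.39 and 11.29 in Olig2cre/+, so its groups overlapped. Within each genotype it ordered the tumours as the neuron marker means given below do, and a shared source was not tested. The median difference of the 4 plasminogen system genes was 0.81, and 0.50 without Olig2cre/cre replicate 2. Plau rose and Serpini1 fell once Olig2cre/cre replicate 3 was left out, where 5.96% of all tested genes rose and 7.87% fell. Plau, the urokinase gene, read 9.78, 7.74 and 8.07 in Olig2cre/cre and 6.18, 5.73 and 6.34 in Olig2cre/+. Its groups were 1.40 apart, and the difference of 2.45 ± 0.53 (SE, adjusted p = 0.0523) missed the threshold narrowly. Plaur, its receptor, differed by 1.43 ± 0.53 (SE, adjusted p = 0.151) and its groups overlapped by 0.01. Of 7 tested membrane repair genes none passed in limma, and 6 had a positive difference, where 51.5% of all tested probes had one. At an unadjusted p under 0.05 stood 2 of the 7, where 3697 of all 14606 tested probes did, in either direction. In the fit without Olig2cre/cre replicate 3, 1 of the 7 rose, Ahnak, where 5.96% of all tested genes did. The dysferlin gene Dysf differed by 1.06 ± 0.26 and the caveolin gene Cav1 by 1.47 ± 0.45 (SE, adjusted p = 0.0671 and 0.105). Neither had overlapping groups, as was so for 31.2% of all tested probes in either direction.

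Of 10 tested genes that expose or recognise phosphatidylserine, the lipid annexins bind, 1 fell and none rose, where 4.78% of all tested genes passed, 2.83% rose and 1.95% fell. The gene that fell was Tmem30a, the subunit that lipid flippases need to keep phosphatidylserine on the inner face. It read 9.91, 9.51 and 10.83 in Olig2cre/cre and 12.27, 11.93 and 11.65 in Olig2cre/+, a difference of -1.87 ± 0.38 (SE, adjusted p = 0.0457). Tmem30a was also the 1 gene of the list that passed without Olig2cre/cre replicate 3, where 7.87% of all tested genes fell. Of 8 tested ALG-2, ALIX and ESCRT genes, which act with Anxa7 and Anxa11 or in membrane scission, none passed. At an unadjusted p under 0.05 stood 1 of the 8, where 3697 of all 14606 tested probes did. Vps4a differed by -0.66 ± 0.25 and Chmp4b by 0.45 ± 0.23 (SE, adjusted p = 0.155 and 0.271). The ALG-2 gene itself, Pdcd6, was not detected on any array. The 4 annexins outside the family list, Anxa8, Anxa9, Anxa10 and Anxa13, had 5 probes, none of them detected on any array.

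Markers of several cell types moved with the genotypes, and their counts stand against 2.83% of all tested genes that rose and 1.95% that fell. Counts at an unadjusted p under 0.05, here and for the marker lists below, stand against 3697 of all 14606 tested probes. Genes with separate groups stand against 31.2% of all tested probes, in either direction. In bulk tumour RNA, fewer cells of a type and less RNA per cell cannot be told apart. The mean of 7 endothelial genes lay 1.99, 1.20 and 1.53 above the Olig2cre/+ mean in the Olig2cre/cre tumours and -0.22 to 0.13 from it in the Olig2cre/+ tumours, and 4 of the 7 rose. Their summed signal on the linear scale was 4542 to 8637 in Olig2cre/cre and 1824 to 2593 in Olig2cre/+. The mean of 7 microglia or macrophage genes was 2.35, 0.71 and 0.87 in Olig2cre/cre and -0.35 to 0.30 in Olig2cre/+. Their summed signals were 7931 to 19518 in Olig2cre/cre and 2941 to 4758 in Olig2cre/+. Of the 7, 2 rose, Lyz2 and Ms4a7, and Lyz2 was the brightest on every array. P2ry12 had separate groups but did not pass. Cx3cr1, Tmem119, Aif1 and Tyrobp had overlapping groups (limma adjusted p = 0.577 to 0.860). The median difference of this list was 0.70, and -0.01 without Olig2cre/cre replicate 1. Of 4 tested pericyte or fibroblast genes 1 rose, Rgs5, and 3 had a positive difference. Dcn went the other way with overlapping groups (-1.44 ± 1.30, SE, limma adjusted p = 0.547), so the list did not move as a whole. Its means were 0.71 to 1.30 in Olig2cre/cre and -0.37 to 0.32 in Olig2cre/+. Its summed signals were 4163 to 9906 in Olig2cre/cre and 1731 to 3198 in Olig2cre/+. Tagln and Col1a2 were not detected on any array. None of the 4 tested neutrophil or monocyte genes passed in limma, and 2, Plac8 and Lcn2, were at an unadjusted p under 0.05 with separate groups. The list mean overlapped between the groups, at 1.32 to 2.62 in Olig2cre/cre and -1.06 to 1.41 in Olig2cre/+, while the summed signals, of 2098 to 5454 in Olig2cre/cre and 270 to 1686 in Olig2cre/+, did not, and the neutrophil granule gene Ngp was not detected on any array.

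Neuronal and oligodendrocyte marker levels ran the other way. The mean of 8 neuron genes was -5.64, -3.14 and -0.79 in Olig2cre/cre replicates 1 to 3 and -0.64 to 0.64 in Olig2cre/+, with summed signals of 1000 to 27065 in Olig2cre/cre and 30388 to 65649 in Olig2cre/+. No neuron gene passed (6 of 8 at an unadjusted p under 0.05), and Snap25 and Nefl were not detected on any array. For 7 oligodendrocyte genes the means were -5.47, -4.07 and -1.08 in Olig2cre/cre and -0.10 to 0.14 in Olig2cre/+, with 2 falling and summed signals of 2145 to 47953 in Olig2cre/cre and 59716 to 68429 in Olig2cre/+. Astrocyte genes had means of -0.23 to 0.34 in Olig2cre/cre and -0.20 to 0.40 in Olig2cre/+. Their summed signals were 51519 to 69152 in Olig2cre/cre and 41386 to 52642 in Olig2cre/+. Of the 8, 0 passed in limma and 2 were at an unadjusted p under 0.05, in opposite directions. These were Gfap (1.63 ± 0.45) and Aqp4 (-1.31 ± 0.43, SE, limma adjusted p = 0.0860 and 0.120), so the flat mean hides differences between genes. Of 6 oligodendrocyte precursor genes 2 fell, with list means of -2.57 to -1.28 in Olig2cre/cre and -0.60 to 0.44 in Olig2cre/+. Of 6 ependymal or choroid plexus genes none passed in limma (2 at an unadjusted p under 0.05), with means of -1.46 to 0.44 in Olig2cre/cre and -0.46 to 0.25 in Olig2cre/+. Without Olig2cre/cre replicate 3, where 5.96% of all tested genes rose and 7.87% fell, 5 of 7 endothelial, 2 of 7 microglia or macrophage, 2 of 4 pericyte or fibroblast and 0 of 4 neutrophil or monocyte genes rose. In the same fit 7 of 8 neuron, 7 of 7 oligodendrocyte, 2 of 6 precursor, 2 of 8 astrocyte and 2 of 6 ependymal or choroid plexus genes fell.

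**Figure D3:**
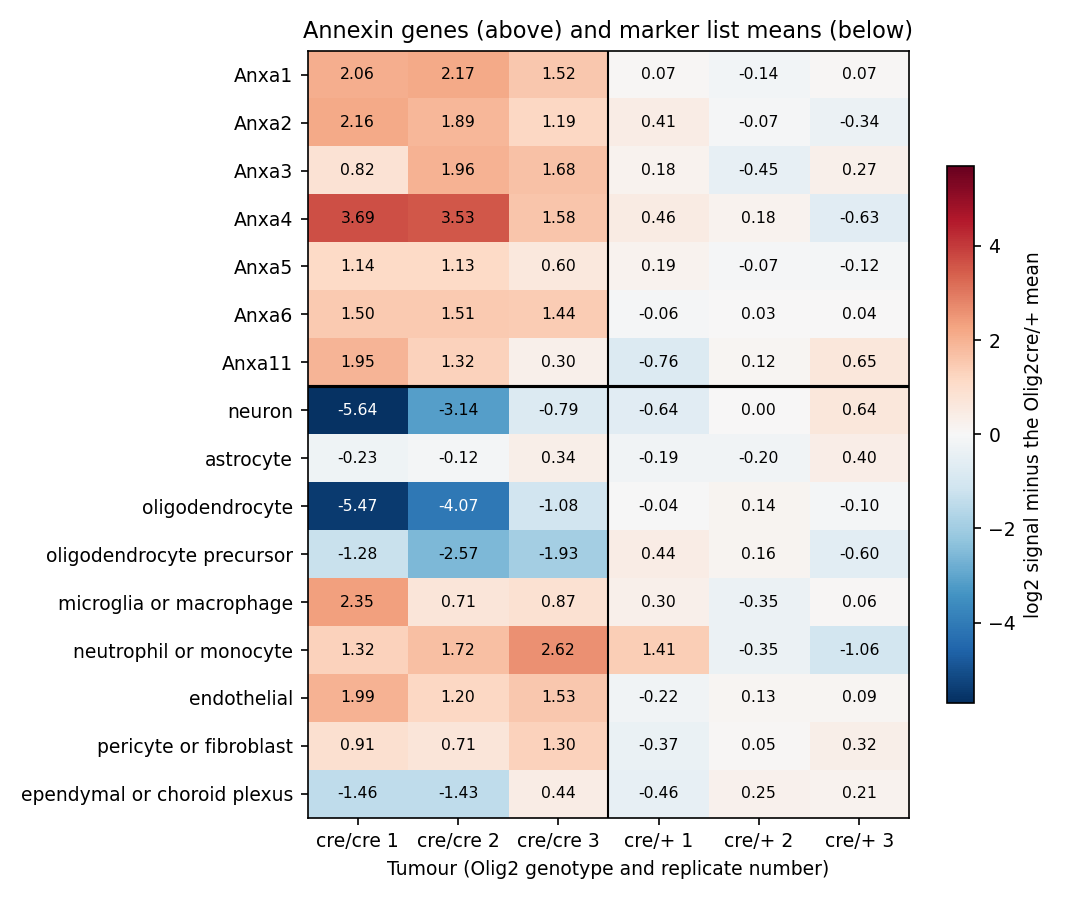
Log2 signal of each measured annexin gene (upper block, representative probe) and mean log2 signal of each cell type marker list (lower block) in every tumour, relative to the mean of the 3 Olig2cre/+ tumours, with Olig2cre/cre in the 3 columns on the left. Red is above and blue below that mean. Anxa6 is nearly constant across the Olig2cre/cre columns (1.44 to 1.51), while the neuron list runs from -5.64 to -0.79 there.

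When the mean of a marker list was added to the fit as a covariate, an alternative chosen after seeing the data, no annexin probe passed in limma. With the neuron list 22 of all tested probes passed, with the microglia or macrophage list 2 and with the endothelial list 0, and 6, 6 and 2 annexin probes and 1421, 1515 and 1419 of all tested probes were at an unadjusted p under 0.05. The Anxa6 difference was 1.47 ± 0.34, 1.49 ± 0.35 and 1.41 ± 0.67 with the neuron, the microglia or macrophage and the endothelial list (SE, adjusted p = 0.194, 0.252 and 0.548), against 1.49 ± 0.21 without a list. Anxa1 was 1.59 ± 0.37, 1.75 ± 0.42 and 2.11 ± 0.87 (SE). Anxa2 was 1.03 ± 0.38 with the neuron list and Anxa4 1.47 ± 0.52 (SE), against 1.74 and 2.93 without it. The Anxa3 differences were larger with each list, at 2.04 to 3.96. The mean of each of these lists did not overlap between the genotypes, so on 6 arrays the fit cannot part list and genotype. The lost calls therefore do not show that cell content accounts for the annexin differences. Whether these cells are the source of the annexin signal was not tested.

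**Figure D4:**
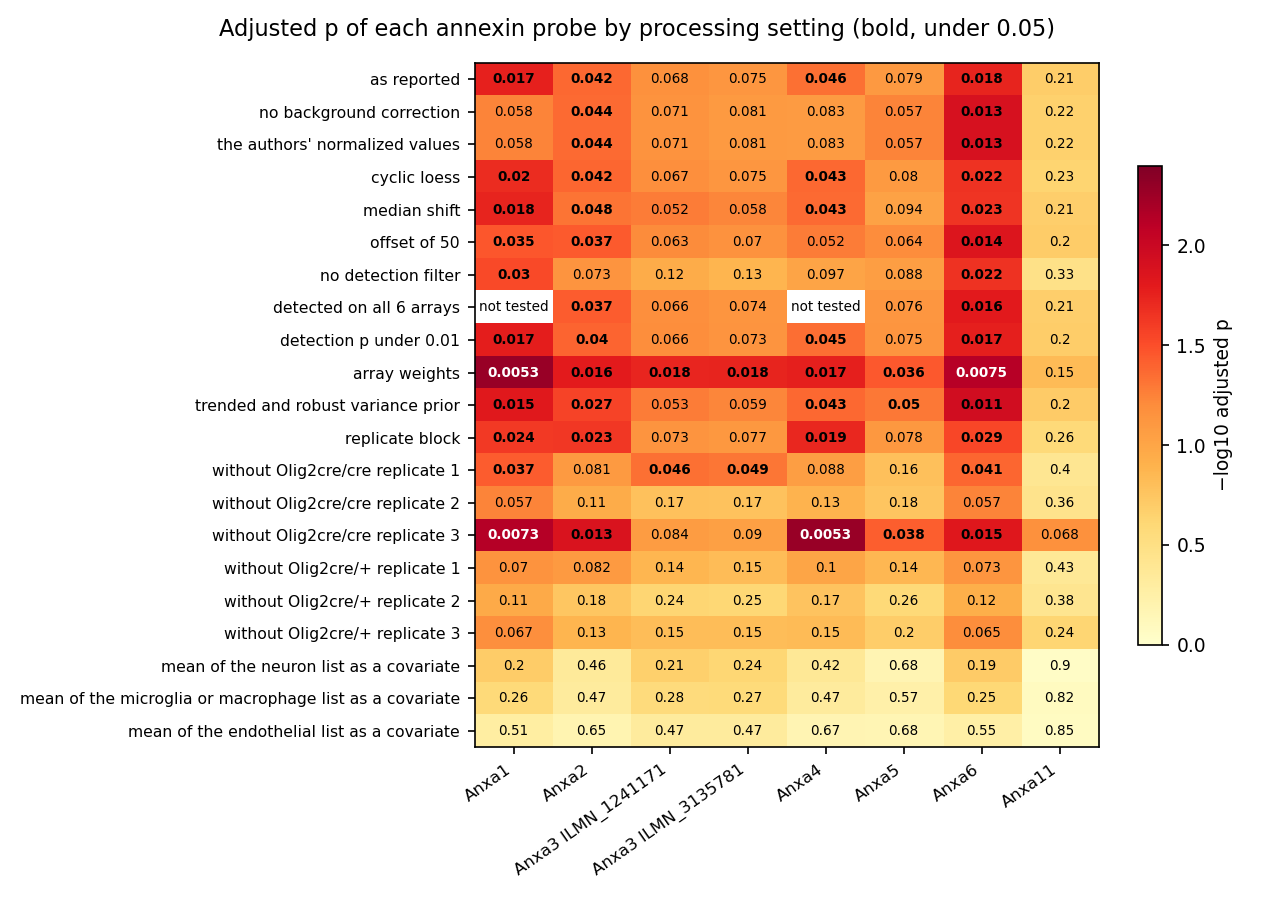
Adjusted p of the 8 tested annexin probes (columns) as reported and under each alternative processing (rows), printed in each cell, with darker cells for smaller values and bold type for values under 0.05. Anxa6, Anxa2 and Anxa1 pass in most of the rows that keep all 6 tumours, and no probe passes in the rows without Olig2cre/cre replicate 2, without any single Olig2cre/+ tumour or with a marker list as a covariate.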

How the data were processed

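Tumour RNA was isolated with Trizol and turned into biotin-labelled cRNA, per the labels. The table used gives the deposited linear, non-normalized intensity of each probe with its detection p-value, per the file headers. A second deposited table held quantile-normalized intensity. Its columns matched the arrays of the first, with numbers 1 and 3 exchanged within each genotype, so the ages 45 and 47 days may be exchanged. No slide or scan is named, so neither could be tested as a batch.

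Signals were background-corrected (normexp, negative controls inferred from detection p-values, offset 16), quantile-normalized and taken to log2 (neqc, limma 3.58.1, R 4.3.3). The 14606 probes detected (p under 0.05) on at least 3 of 6 arrays were fitted with genotype as the only term (lmFit, eBayes, two-sided), with Benjamini-Hochberg adjustment over all of them. The number of arrays limits the precision. Of the probes, 23978 had 1 symbol, 0 several and 1719 none, and 23962 were matched by gene identifier to GRCm38.p6 symbols. A gene of a list is represented by its tested probe of highest mean, and annexins by all probes. An "at least" fold sets the bright group's mean against, per array, the lowest detected signal or the probe's own, whichever is higher. It holds only for the background correction and offset used here.

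Named genes were every annexin probe, Olig2, from each partner list those past the threshold or else the 2 of smallest p, and the 3 nearest patterns of each annexin that passed, with predicted names passed over. Members and lists were chosen with earlier results of these data known. The fitting step was tested on simulated data. Same-numbered tumours deviated from their group means with correlations of 0.194, 0.0168 and 0.302 over tested probes. The numbers were not taken as pairs in the main fit, and a fit with them as a block is given beside it.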

Additional observations from a re-analysis of the deposited data

How the results depend on the processing

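The count of annexin probes past the threshold, 4 as reported, was 2 without background correction, 2 on the authors' own normalization (equal results, so not a separate check), 2 with no detection filter, 2 among probes detected on all 6 arrays, where Anxa1 and Anxa4 were not tested, and 7 with array weights. It was 0 to 5 when single tumours were left out. With the neuron, microglia or macrophage or endothelial list mean as a covariate it was 0, and each of these means itself separated the genotypes. The count over all probes, 645, was 411 without background correction, 411 on the authors' normalization, 230 with no detection filter and 1860 with array weights. It was 9 to 1922 over the fits without 1 tumour, and 22, 2 and 0 with the neuron, microglia or macrophage and endothelial covariates (1421, 1515 and 1419 at an unadjusted p under 0.05). Of these calls 60.0% were higher in Olig2cre/cre, but 43.4% with the replicate block, 44.4% without Olig2cre/cre replicate 3, 49.3% without Olig2cre/+ replicate 3, 70.1% among probes detected on all arrays and 72.4% without Olig2cre/cre replicate 2.

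With the replicate block, all tested probes gave 1382 calls and the annexins the same 4. The labels give same-numbered tumours a shared number and age, and leave unsaid whether they share anything else. In their deviations from the group means, Olig2cre/cre replicates 1 and 3 correlated best with the Olig2cre/+ tumour of their own number (0.194 and 0.302). By the same measure Olig2cre/cre replicate 2 correlated best with Olig2cre/+ replicate 1 (0.101).

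Over the single annexin differences, 96 planned comparisons kept their side of the threshold, 23 lost a call, 7 gained one and 0 changed direction, with the authors' normalization not counted again. Anxa11 turned to -1.01 ± 1.53 (SE, adjusted p = 0.848) with the endothelial covariate. The cause of these changes was not tested. Over the planned settings the Anxa1 difference ranged from 0.64 to 2.12 and that of Anxa4 from 1.55 to 3.61.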
